A study of Mus musculus with 12 samples.

Results

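The 42 genes described here encode enzymes of the urea cycle and of amino acid breakdown. They were chosen by name, and all 42 were found among the 23991 genes of the table, with the transcript of highest mean kept for each gene. They fall by role into 6 genes of the urea cycle, 9 of aromatic amino acids, 4 of histidine, 8 of sulfur amino acids, 4 of branched-chain amino acids and lysine, 5 transaminases and 6 genes of glutamine, proline, ornithine, serine and glycine. Of the 42 genes, 39 passed the filter on low values, which asked for 0.5 RPKM or more in 4 or more libraries, and were tested. Kynu, Ddc and Bckdhb did not pass it and are given by value. Sdsl and Gldc passed it mainly through chow libraries, so their direction was partly fixed by the filter.

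PolyA RNA of whole liver was sequenced from male C57/Bl6J mice, with 3 groups and 4 libraries in each. HFD+ASBTi mice ate a high-fat diet to which 0.2% cholesterol by weight and 0.006% SC-435 were added. SC-435 is an inhibitor of ASBT, the transporter by which the ileum takes bile acids back up. HFD mice ate the same high-fat, high-cholesterol diet without the inhibitor, and chow mice ate chow. All mice were 4 weeks old when their diet began and ate it for 16 weeks, and the labels name no genetic change. That every library came from its own mouse is not stated in the labels, and p-values therefore cover only library-to-library spread, part or all of which may be technical.

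The liver is the main site where the nitrogen and carbon of amino acids are separated. Transaminases and deaminases move amino groups to glutamate, aspartate and free ammonia, and the urea cycle, which starts in the mitochondria of periportal hepatocytes and ends in their cytosol, turns ammonia and the amino group of aspartate into urea. Methionine is first made into S-adenosylmethionine, the methyl donor of the cell, then into homocysteine, and by transsulfuration into cysteine, from which the liver makes taurine, the amino acid that mouse liver joins to most of its bile acids. Tyrosine, tryptophan, histidine, lysine and serine each have their own chain of liver enzymes, many of which respond to glucocorticoids, glucagon and dietary protein.

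The deposited RPKM values are reads scaled by length and by library total. The length appears to be the genomic span of each gene, introns included, judged from low values, as the counter is not named. RPKM values were therefore used to compare 1 gene between libraries but not different genes. Depth was estimated at 8970000 to 13230000 reads per library from the size of 1 read in low values. Among the member genes the estimated reads per library ranged from 25 for Sdsl to 40323 for Mat1a. HFD+ASBTi libraries 1 and 2 lay at 16.31 and 15.29 on the second principal component of all tested genes (13.8% of the variance), against -18.58 and -2.85 for libraries 3 and 4, and the labels name no batch for this split. The sample titles give libraries 1 and 2 consecutive numbers, and libraries 3 and 4 later consecutive numbers. The numbers of the HFD libraries lie between these runs, and what the numbers stand for is not stated. HFD 4 was the highest of the 4 HFD libraries in 28 of the 42 genes, chow 1 the highest chow library in 28 and chow C7 the lowest in 27. Calls in HFD against chow that changed without these libraries are given below, with fold changes only for the fit without HFD 4. For a gene lower in HFD, leaving out its highest HFD or lowest chow library widens the gap by construction. Per-library values below follow replicates 1, 2, 3 and 4, and the third chow value is that of C7, whose column could be matched to the chow group but not to a single labelled sample.

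Per kilobase of spliced transcript, levels of different genes can be set side by side only if the counted reads lie in exons. Whether they do is not known, and reads of introns or overlapping genes may be included. On this scale the 4 members with the highest chow values were the sulfur genes Mat1a, Gnmt, Cdo1 and Bhmt. The other sulfur genes lay among the rest. Mat1a averaged 536 in HFD+ASBTi, 500 in HFD and 948 RPM per spliced kilobase in chow. Gnmt averaged 430, 316 and 722, and Cdo1 400, 287 and 568, in the same order of groups. Bhmt stood at 481, 292 and 456, Arg1 at 236, 258 and 411 and Tat at 158, 174 and 404. Sdsl had the lowest values on this scale, at 3.55 in HFD+ASBTi, 4.07 in HFD and 7.15 RPM per spliced kilobase in chow. Cps1 stood at 131, 116 and 216 in the same order of groups.

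**Figure D1:**
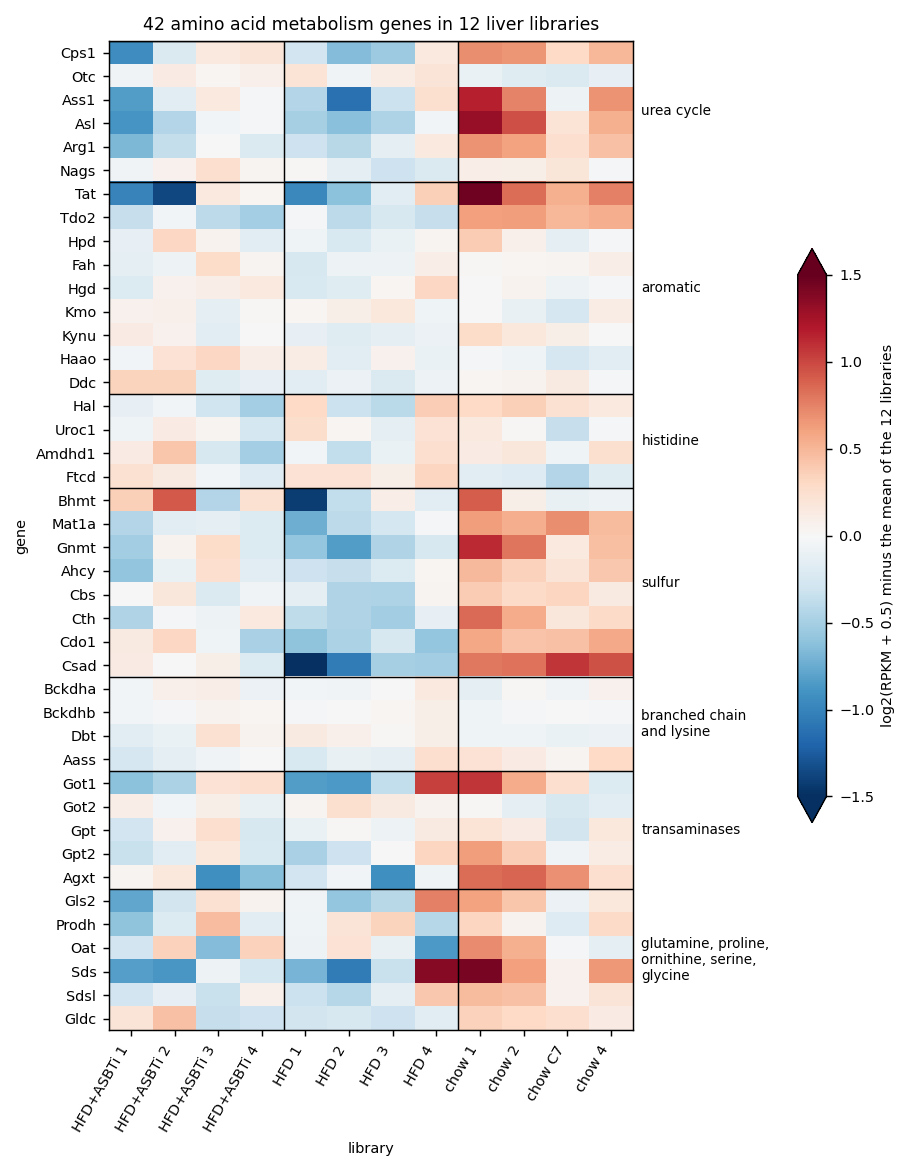
Heat map of log2(RPKM + 0.5) for the 42 genes (rows, by role) in the 12 libraries (columns, by group), with each gene centred on its mean over all libraries, red above and blue below it. The Cps1, Asl and Arg1 rows and the sulfur rows other than Bhmt are red in the 4 chow columns, while the histidine and branched-chain rows are pale or mixed.

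The 250 bases before the start of 4 genes are shown because these genes mark both directions of the HFD against chow comparison: Csad and Tdo2 were lower in HFD, with the smallest adjusted p of the genes found in the promoter table, and Ftcd and Otc were the only members called higher. The sequences are RefSeq's for GRCm38.p6, which is not the build of the deposited table (mm9), and are written 5′ to 3′ on the gene's own strand. Capitals mark matches to the motifs searched. Csad lies at chr15:102189044-102189293 on the minus strand, Tdo2 at chr3:81975729-81975978 on the minus strand, Ftcd at chr10:76575398-76575647 on the plus strand and Otc at chrX:10252055-10252304 on the plus strand.
Csad: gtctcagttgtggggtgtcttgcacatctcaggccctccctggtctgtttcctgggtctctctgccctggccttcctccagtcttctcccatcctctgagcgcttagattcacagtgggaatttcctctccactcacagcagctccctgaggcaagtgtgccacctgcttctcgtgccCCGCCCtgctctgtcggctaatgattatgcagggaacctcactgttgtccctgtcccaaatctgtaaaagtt
Tdo2: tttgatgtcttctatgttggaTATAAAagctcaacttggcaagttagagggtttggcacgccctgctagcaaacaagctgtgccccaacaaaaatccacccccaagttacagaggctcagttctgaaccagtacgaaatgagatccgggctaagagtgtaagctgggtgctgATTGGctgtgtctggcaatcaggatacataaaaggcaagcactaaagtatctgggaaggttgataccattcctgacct
Ftcd: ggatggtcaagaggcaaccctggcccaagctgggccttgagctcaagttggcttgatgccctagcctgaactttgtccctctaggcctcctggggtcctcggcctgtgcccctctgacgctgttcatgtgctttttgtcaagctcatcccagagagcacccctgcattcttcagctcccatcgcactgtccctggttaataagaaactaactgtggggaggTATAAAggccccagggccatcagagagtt
Otc: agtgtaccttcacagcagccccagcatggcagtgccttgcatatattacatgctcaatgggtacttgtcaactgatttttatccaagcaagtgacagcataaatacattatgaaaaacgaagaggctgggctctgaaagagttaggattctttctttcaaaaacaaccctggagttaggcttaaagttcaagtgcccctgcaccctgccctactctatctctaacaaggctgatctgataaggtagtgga
Promoters of the other called members are not shown. The motifs searched on both strands were the TATA box TATAAA, the Y box motif CCAAT, the GC box motif GGGCGG, TGACGTCA (a cAMP response element), TTGCGCAA (a C/EBP site), CAAAGTCCA (an HNF4 site) and the palindromic glucocorticoid element, of which none overlaps another in these windows. Among 32851 promoter windows of the same length, 12.4% hold the TATA box, 33.8% the Y box motif, 32.7% the GC box, 1.55% the cAMP response element, 0.164% the C/EBP site, 0.384% the HNF4 site and 0.00913% the glucocorticoid element. Ftcd holds the TATA box ending 23 bases before its start, and Csad a GC box on the other strand ending 66 bases before its start. Tdo2 holds the TATA box ending 223 and the Y box motif, on the other strand, ending 73 bases before the table's start, which lies 474 bases from the annotated start of the deposited transcript. Otc holds none of the motifs in this window.

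The first comparison asked how the high-fat, high-cholesterol diet changed these genes. In HFD livers 12 of the 39 tested genes were lower and 2 were higher than in chow livers, and 25 did not pass the test. The genes that fell were Cps1, Asl and Arg1 of the urea cycle, Tdo2 of tryptophan breakdown, 7 of the 8 sulfur genes and the transaminase Agxt, and the 2 that rose were Otc and Ftcd. Of all 6325 tested genes, 4.46% were called lower and 7.65% higher, and the 12 members called lower are 30.8% of the 39. The median log2 fold change of the 39 genes was -0.41, against 0.02 over all tested genes, and 31 of 39 were below 0. In 14 of the 39 every HFD library lay below every chow library and in 4 every HFD library lay above, beside 8.89% and 12.4% of all tested genes. Sdsl and Gldc, whose direction was partly fixed by the filter, are among the 31, and Gldc is among the 14. Folds of means below are on the RPKM scale, while log2 fold changes were computed after adding 0.5 to each RPKM, which understates changes of genes with low RPKM.

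**Figure D2:**
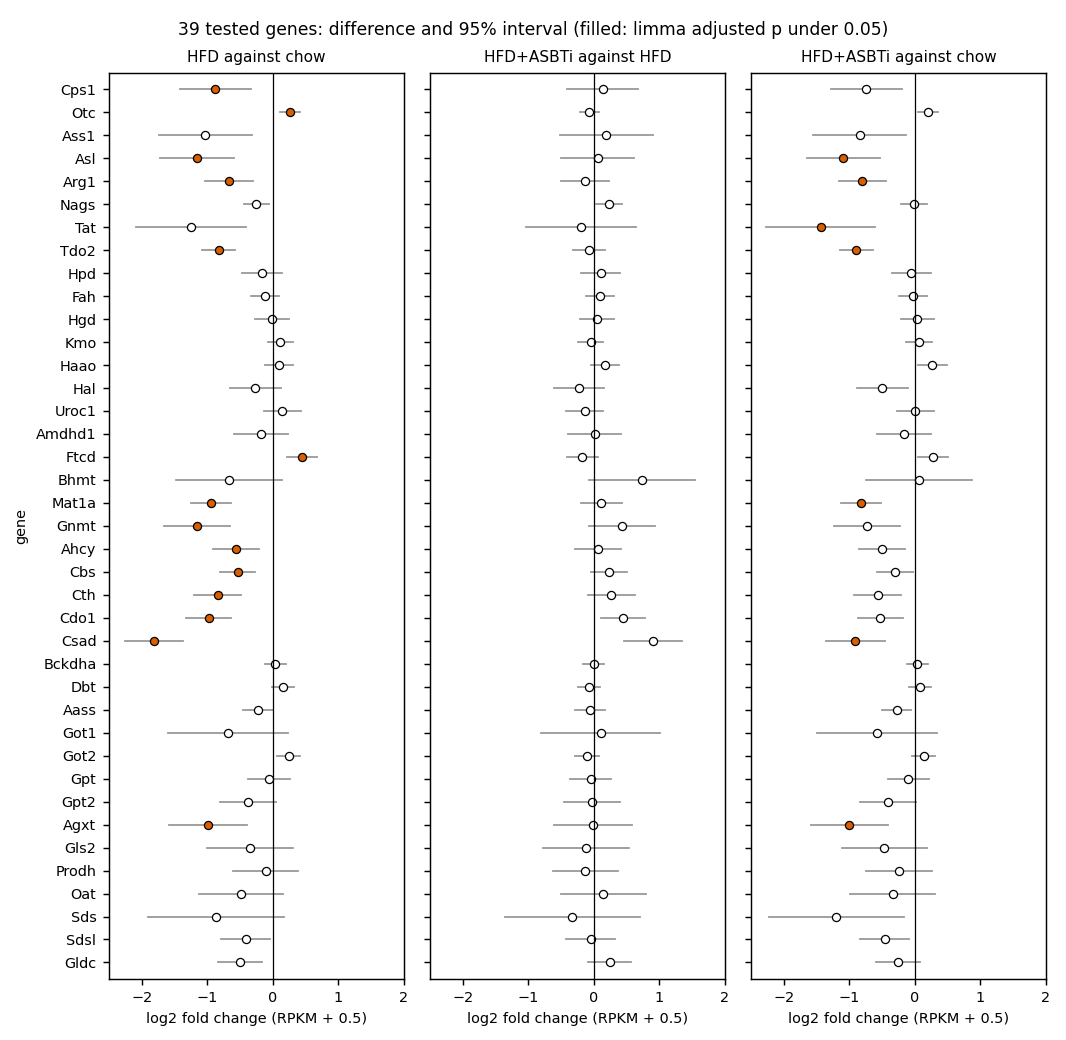
Log2 fold change of each of the 39 tested genes (circles) with its 95% interval (lines), in HFD against chow, HFD+ASBTi against HFD and HFD+ASBTi against chow. Filled circles, at limma adjusted p under 0.05, number 14 in the first panel, 0 in the second and 7 in the third, and the intervals of Tat, Got1 and Sds are among the widest.

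In the urea cycle, the RNA of 3 of the 6 enzymes fell in HFD livers, 1 rose and 2 did not pass the test. Cps1, which makes carbamoyl phosphate from ammonia and is the first and rate-limiting step, had 3.68, 6.33, 8.29 and 8.55 RPKM in HFD+ASBTi, 6.02, 4.54, 4.93 and 8.27 in HFD, against 12.3, 12.1, 9.26 and 10.7 in chow. All 4 HFD libraries lay below all 4 chow libraries, and Cps1 averaged 5.94 ± 1.67 RPKM in HFD and 11.1 ± 1.41 RPKM in chow (SD, n = 4 each), 1.87-fold lower in HFD (log2 fold change -0.88, SE 0.25, limma adjusted p = 0.0401). Nags, which makes the activator that Cps1 needs, had 8.29, 8.998, 10.3 and 8.90 RPKM in HFD+ASBTi, 8.75, 7.73, 6.88 and 7.37 in HFD, against 9.26, 9.20, 9.80 and 8.52 in chow. HFD and chow overlapped for Nags, which did not pass the test (log2 fold change -0.25, adjusted p = 0.0952).

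Otc, which joins carbamoyl phosphate to ornithine, went the other way. Its values were 1.89, 2.19, 2.02 and 2.11 RPKM in HFD+ASBTi, 2.34, 1.88, 2.17 and 2.32 in HFD, against 1.81, 1.68, 1.63 and 1.77 in chow. Every HFD value lay above every chow value, with 1.26-fold the chow mean in HFD (log2 fold change 0.27, SE 0.07, limma adjusted p = 0.0278). Ass1, which joins citrulline to aspartate, had 2.36, 4.07, 5.14 and 4.53 RPKM in HFD+ASBTi, 3.27, 1.86, 3.60 and 5.51 in HFD, against 10.99, 8.02, 4.33 and 7.63 in chow. HFD 4 and chow C7 overlapped, and Ass1 did not pass the test (log2 fold change -1.03, adjusted p = 0.0591), but did so without HFD 4 or without chow C7 (adjusted p 0.0337 and 0.0348). These were its highest HFD and its lowest chow value, so leaving out either widened the gap by construction.

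Asl splits argininosuccinate into arginine and fumarate. It had 4.09, 5.72, 7.69 and 7.85 RPKM in HFD+ASBTi, 5.48, 4.95, 5.65 and 7.73 in HFD, against 20.3, 15.99, 9.24 and 11.7 in chow. The HFD and HFD+ASBTi values overlapped each other and all lay below the lowest chow value. Asl averaged 5.95 ± 1.22 RPKM in HFD and 14.3 ± 4.87 RPKM in chow, 2.40-fold lower in HFD (log2 fold change -1.16, SE 0.25, limma adjusted p = 0.0146). Arg1, which releases urea from arginine, had 21.6, 27.3, 34.9 and 30.03 RPKM in HFD+ASBTi, 28.1, 25.99, 31.7 and 38.7 in HFD, against 55.9, 53.1, 41.8 and 47.3 in chow. It was 1.59-fold lower in HFD (log2 fold change -0.67, SE 0.17, limma adjusted p = 0.0244), with no overlap between HFD and chow.

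Of these calls, that of Asl was kept in every alternative run. The Cps1 call was lost when HFD+ASBTi 2, HFD 1, 2 or 3 or any 1 of the chow libraries was left out (adjusted p 0.0516 to 0.107), the Otc call without HFD 1, 3 or 4 or chow 2, C7 or 4 (0.0503 to 0.077), and the Arg1 call without HFD 1, 2 or 3 or chow 1 or 2 (0.0536 to 0.0718). With no filter on low values the Cps1 and Arg1 calls were lost (0.084 and 0.0505), and the Otc call was lost under quantile normalization (0.0578).

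**Figure D3:**
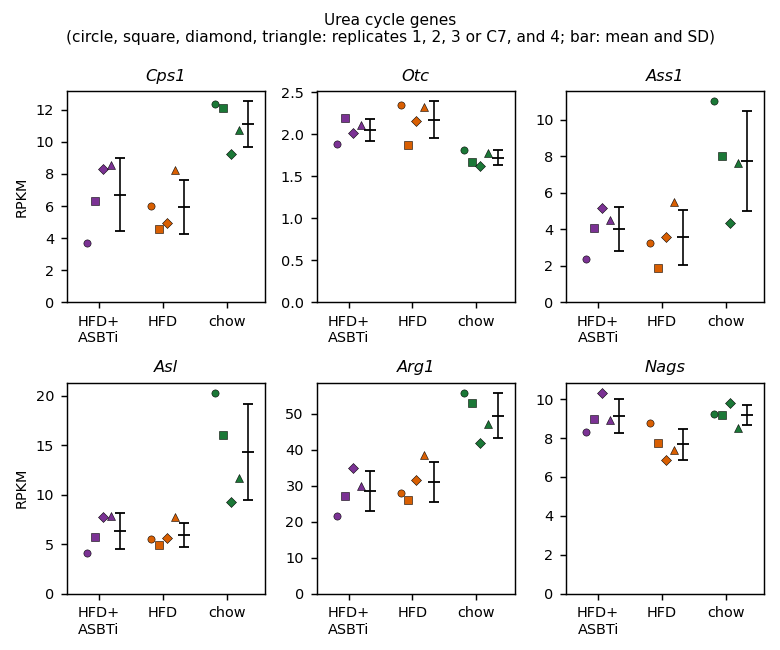
RPKM (y axis, from 0) of the 6 urea cycle genes in each library of HFD+ASBTi, HFD and chow (x axis), 1 symbol per library, with the mean and SD of 4 libraries beside them. Cps1, Asl and Arg1 lie highest in chow, while Otc lies lowest in chow, between 1.63 and 1.81 RPKM.

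The sulfur amino acid genes held the most calls of any role. Of 8 genes, 7 fell in HFD livers and Bhmt did not pass the test, and the median log2 fold change of the 8 was -0.89. Mat1a, which makes S-adenosylmethionine from methionine, had 83.1, 100.02, 103 and 97.6 RPKM in HFD+ASBTi, 67.7, 85.8, 93.7 and 111 in HFD, against 175, 164, 183 and 156 in chow. The HFD values were all below the chow values and averaged 89.5 ± 17.9 RPKM in HFD and 169.7 ± 11.6 RPKM in chow, 1.90-fold lower in HFD (log2 fold change -0.94, SE 0.14, limma adjusted p = 0.00254).

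Gnmt, which uses S-adenosylmethionine to methylate glycine, had 92.3, 138, 161 and 116 RPKM in HFD+ASBTi, 89.02, 74.1, 97.3 and 112 in HFD, against 291, 233, 147 and 182 in chow. Chow 1 was the highest library, and the lowest chow value lay above the highest HFD value. Gnmt was 2.29-fold lower in HFD (log2 fold change -1.16, SE 0.23, limma adjusted p = 0.0101). Ahcy, which splits S-adenosylhomocysteine into adenosine and homocysteine, had 28.03, 39.6, 50.5 and 37.8 RPKM in HFD+ASBTi, 34.1, 33.2, 36.7 and 43.4 in HFD, against 59.5, 53.98, 48.4 and 56.1 in chow. It was 1.48-fold lower in HFD (log2 fold change -0.56, SE 0.16, limma adjusted p = 0.0425). This call was lost when HFD+ASBTi 2 or 4, HFD 1, 2 or 3 or any 1 of the chow libraries was left out (adjusted p 0.0516 to 0.109), with no filter on low values (0.0803) and under quantile normalization (0.0527).

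Bhmt returns homocysteine to methionine with a methyl group from betaine. It spanned 32.5 to 84.01 RPKM in HFD+ASBTi, 16.2 to 47.4 in HFD and 40.9 to 83.4 in chow, and did not pass the test (log2 fold change -0.67, adjusted p = 0.261). Cbs and Cth are the 2 enzymes of transsulfuration, which make cystathionine and then cysteine. Cbs had 5.17, 5.88, 4.38 and 4.98 RPKM in HFD+ASBTi, 4.63, 3.64, 3.60 and 5.33 in HFD, against 6.89, 6.44, 6.57 and 5.71 in chow. Cth had 2.51, 3.53, 3.41 and 4.06 RPKM in HFD+ASBTi, 2.65, 2.51, 2.36 and 3.28 in HFD, against 6.92, 5.56, 4.13 and 4.53 in chow. For both, every HFD value was below every chow value. Cbs was 1.49-fold lower (log2 fold change -0.54, SE 0.12, limma adjusted p = 0.0185) and Cth 1.96-fold lower in HFD (log2 fold change -0.84, SE 0.16, limma adjusted p = 0.00946). The Cbs call was lost without HFD 2, HFD 3 or chow 1 (adjusted p 0.053 to 0.0552).

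Cdo1 and Csad take cysteine towards taurine: Cdo1 oxidises cysteine to cysteine sulfinate, and Csad removes its carboxyl group to give hypotaurine. Cdo1 had 45.9, 52.2, 39.9 and 29.8 RPKM in HFD+ASBTi, 27.4, 29.9, 35.3 and 27.8 in HFD, against 62.9, 56.4, 56.7 and 62.2 in chow. It averaged 30.1 ± 3.63 RPKM in HFD and 59.5 ± 3.49 RPKM in chow, 1.98-fold lower in HFD (log2 fold change -0.98, SE 0.16, limma adjusted p = 0.00347). Csad had 6.23, 5.66, 6.06 and 4.88 RPKM in HFD+ASBTi, 1.60, 2.49, 3.88 and 3.81 in HFD, against 10.2, 10.4, 12.5 and 11.5 in chow. The 3 groups did not overlap at all, with HFD lowest and HFD+ASBTi between HFD and chow. Csad averaged 2.95 ± 1.10 RPKM in HFD and 11.2 ± 1.07 RPKM in chow, 3.79-fold lower in HFD (log2 fold change -1.82, SE 0.20, limma adjusted p = 0.000482), the most negative log2 fold change of the 39 tested members. The calls of Mat1a, Gnmt, Cth, Cdo1 and Csad were kept in all 21 alternatives that applied.

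**Figure D4:**
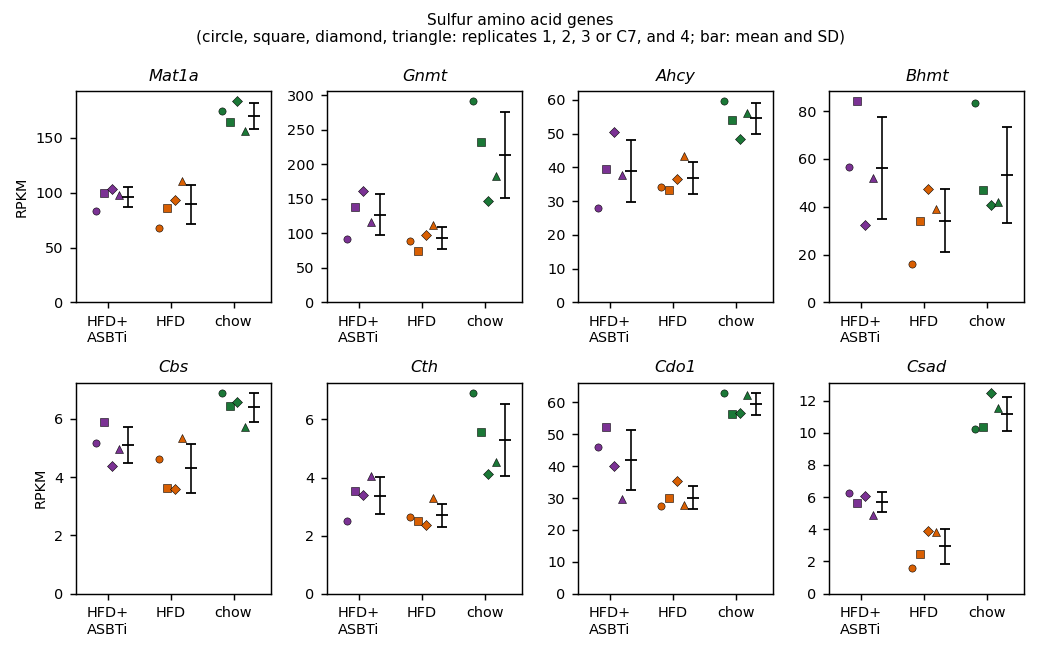
RPKM (y axis, from 0) of the 8 sulfur amino acid genes in each library of HFD+ASBTi, HFD and chow (x axis), 1 symbol per library, with the mean and SD of 4 libraries beside them. In every panel but Bhmt all HFD symbols lie below all chow symbols, and for Csad the HFD+ASBTi symbols, between 4.88 and 6.23 RPKM, overlap neither of the other groups.

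Among 7 tested aromatic amino acid genes, 1 fell in HFD livers and 6 did not pass the test. Tdo2, which opens the ring of tryptophan and commits it to the kynurenine pathway, had 18.6, 23.2, 18.1 and 16.6 RPKM in HFD+ASBTi, 23.5, 18.03, 20.1 and 18.6 in HFD, against 36.95, 37.2, 33.8 and 35.2 in chow. HFD and chow stood far apart next to their spread, at 20.1 ± 2.45 RPKM in HFD and 35.8 ± 1.61 RPKM in chow, 1.78-fold lower in HFD (log2 fold change -0.83, SE 0.11, limma adjusted p = 0.0017). This call was kept in every alternative run.

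Tat, the glucocorticoid-induced enzyme that starts tyrosine breakdown, ranged from 26.9 to 68.1 RPKM in HFD and from 77.02 to 147 RPKM in chow. The groups did not overlap, but with this spread Tat missed the threshold (log2 fold change -1.25, adjusted p = 0.0548). It was called lower in 7 of the 21 alternatives, among them the RPM scale (adjusted p = 0.0365) and the fit without HFD 4 (adjusted p = 0.0341). HFD 4 was its highest HFD library, so leaving it out widened the gap by construction. The later tyrosine enzymes did not pass the test. Hpd, which makes homogentisate, had a log2 fold change of -0.16 (adjusted p = 0.459), Hgd, which opens its ring, -0.01 (0.981) and Fah, the last enzyme, -0.12 (0.457).

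Kmo and Haao, 2 enzymes of the kynurenine pathway, had log2 fold changes of 0.11 and 0.10 (adjusted p 0.423 and 0.568). Kynu, the kynureninase between them, was too low in RPKM to be tested, at 0.273 to 0.437 RPKM in HFD+ASBTi, 0.260 to 0.313 in HFD and 0.356 to 0.540 in chow. On the RPM scale (reads scaled by library total only), where it could be tested, Kynu averaged 36.5 ± 2.79 RPM in HFD and 56.3 ± 9.84 RPM in chow and was called lower (log2 fold change -0.60, limma adjusted p = 0.0188). This was the only call among the 3 alternatives in which Kynu could be tested. Ddc, the aromatic amino acid decarboxylase, was also untested in RPKM. It stood at 0.357, 0.358, 0.0994 and 0.125 RPKM in HFD+ASBTi, 0.0837 to 0.142 in HFD and 0.164 to 0.246 in chow, and on the RPM scale it was not called (adjusted p = 0.191).

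Of the 4 histidine genes, 1 rose in HFD livers and 3 did not pass the test. Ftcd, which hands the last carbon of histidine breakdown to tetrahydrofolate, had 17.8, 16.6, 14.7 and 13.1 RPKM in HFD+ASBTi, 17.6, 17.6, 16.1 and 18.9 in HFD, against 13.5, 13.1, 10.98 and 13.3 in chow. All HFD values lay above all chow values, with 1.38-fold the chow mean in HFD (log2 fold change 0.45, SE 0.11, limma adjusted p = 0.0195). The call was lost without HFD 2 or chow C7 (adjusted p 0.0505 to 0.0525). The steps before it did not pass the test. Hal, which removes ammonia from histidine, had a log2 fold change of -0.27 (adjusted p = 0.342), Uroc1, the urocanase, 0.14 (0.495) and Amdhd1, the imidazolonepropionase, -0.18 (0.563).

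No branched-chain or lysine gene passed the test in HFD against chow. Bckdha and Dbt, subunits of the branched-chain ketoacid dehydrogenase that commits leucine, isoleucine and valine to breakdown, had log2 fold changes of 0.04 (95% interval -0.12 to 0.20) and 0.16 (95% interval -0.01 to 0.33). These intervals were narrower than those of the sulfur genes. Bckdhb, the partner subunit of Bckdha, was untested in RPKM at 0.103 to 0.154 RPKM in HFD and 0.0912 to 0.11998 in chow, and was not called on the RPM scale (log2 fold change 0.24, adjusted p = 0.305). Aass, which starts lysine breakdown, had a log2 fold change of -0.23 (adjusted p = 0.177) and was called lower without HFD 4 (adjusted p = 0.0257). Its highest HFD value was that of HFD 4, so this gap widened by construction.

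Agxt alone of the 5 transaminases passed the test. Agxt, which turns glyoxylate into glycine, had 7.46, 8.17, 3.60 and 4.48 RPKM in HFD+ASBTi, 5.85, 7.02, 3.60 and 6.90 in HFD, against 13.3, 13.7, 11.998 and 8.70 in chow. It averaged 5.84 ± 1.58 RPKM in HFD and 11.9 ± 2.29 RPKM in chow, 2.04-fold lower in HFD (log2 fold change -0.99, SE 0.27, limma adjusted p = 0.0365). The groups did not overlap, but the call was lost without HFD 1, 2 or 3 or chow 1, 2 or C7 (adjusted p 0.0519 to 0.0944) and with no filter on low values (0.0766). The alanine transaminases Gpt and Gpt2 had log2 fold changes of -0.06 and -0.38 (adjusted p 0.836 and 0.226). Got2, the mitochondrial aspartate transaminase, was above chow in all 4 HFD libraries but missed the threshold (log2 fold change 0.24, adjusted p = 0.0758). Got1, its cytosolic partner, did not pass the test (log2 fold change -0.68, adjusted p = 0.306).

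None of the 6 genes of glutamine, proline, ornithine, serine and glycine passed the test, and all 6 had log2 fold changes below 0. For Sdsl and Gldc, which passed the filter mainly through chow libraries, this direction was partly fixed by the filter. Gldc, the decarboxylase of the glycine cleavage system, stood at 0.197 to 0.265 RPKM in HFD and 0.442 to 0.593 in chow without overlap (log2 fold change -0.50, adjusted p = 0.0535), and was called lower on the RPM scale (adjusted p = 0.0288). Gls2, the liver glutaminase, had a log2 fold change of -0.35, Prodh, which starts proline breakdown, -0.11 and Oat, which turns ornithine towards glutamate, -0.49 (adjusted p 0.478, 0.789 and 0.305).

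Sds and Sdsl, the serine dehydratase and a related enzyme, turned on 1 library. Sds had 8.14, 7.83, 14.03 and 12.2 RPKM in HFD+ASBTi, 8.95, 6.89, 11.6 and 38.7 in HFD, against 40.6, 22.9, 15.4 and 23.5 in chow. HFD 4 lay among the chow values while the other 3 HFD libraries lay below all of them, and Sds did not pass the test (log2 fold change -0.87, adjusted p = 0.252). Got1 had 2.24, 2.51, 4.37 and 4.49 RPKM in HFD+ASBTi, 1.86, 1.80, 2.75 and 8.02 in HFD, against 8.34, 5.65, 4.51 and 3.15 in chow, again with HFD 4 high. Without HFD 4, Sds (log2 fold change -1.38, adjusted p = 0.0224), Got1 (-1.11, 0.0438), Ass1 (-1.25, 0.0337), Tat (-1.48, 0.0341) and Aass (-0.33, 0.0257) were called lower. HFD 4 held the highest HFD value of each of these genes, so leaving it out lowered their HFD means by construction. Sdsl was called too (-0.59, 0.02), but not with all libraries (-0.41, adjusted p = 0.141). Sdsl had passed the filter through chow 1, 2 and 4 and HFD 4, so its direction without HFD 4 was largely fixed by the filter. The count of members called lower in HFD against chow without HFD 4 was 18, Sdsl among them. Over all 6325 tested genes the lower calls went from 282 to 348 when HFD 4 was left out. HFD 4 also had the highest Pck1 of the HFD libraries, at 264 RPKM against 132 to 164 in the other 3. Pck1 encodes a gluconeogenic enzyme, and the part of this library difference in the results was not tested.

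**Figure D5:**
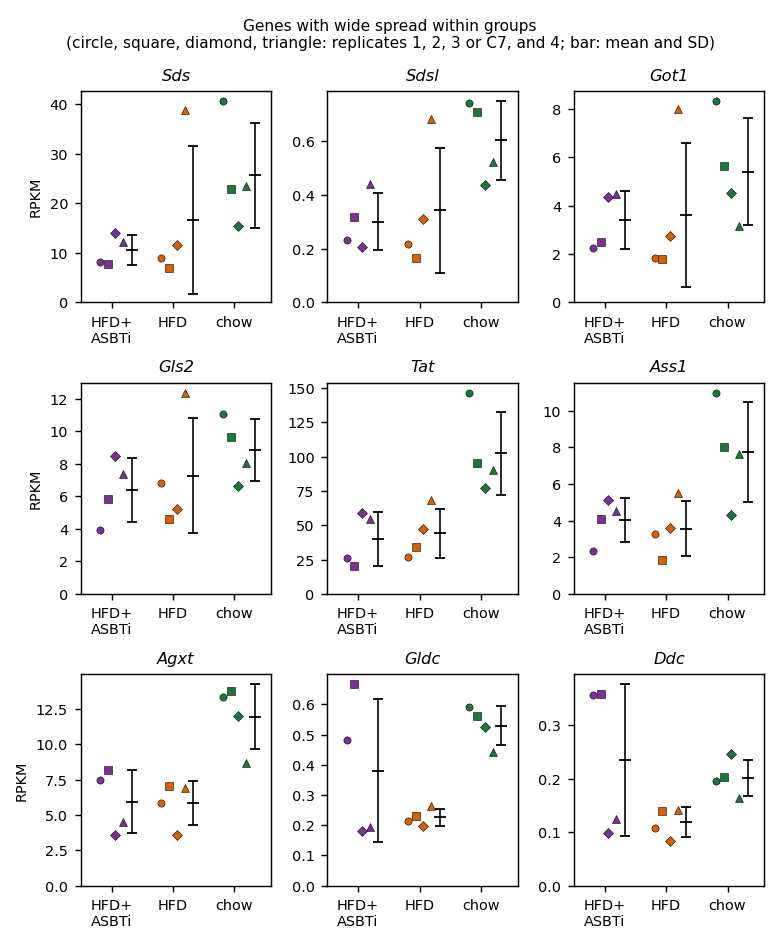
RPKM (y axis, from 0) of 9 genes with wide spread within a group, in each library of HFD+ASBTi, HFD and chow (x axis), 1 symbol per library, with the mean and SD of 4 libraries beside them. HFD 4, the triangle, stands above the other HFD libraries for Sds, Sdsl, Got1 and Gls2, and HFD+ASBTi 1 and 2, the circle and square, stand above 3 and 4 for Agxt, Gldc and Ddc and below them for Tat.

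The second comparison asked what the ASBT inhibitor changed in mice on the same high-fat diet. None of the 39 tested genes passed the test by limma in HFD+ASBTi against HFD, where 0.0316% of all tested genes were called higher and 0.0632% lower. At an unadjusted p under 0.05 there were 3 members, Csad, Cdo1 and Nags, all higher in HFD+ASBTi, beside 586 of 6325 genes (9.26%) overall. Csad averaged 5.71 ± 0.603 RPKM in HFD+ASBTi and 2.95 ± 1.10 RPKM in HFD (SD, n = 4 each), 1.94-fold the HFD mean, with a log2 fold change of 0.91 (95% interval 0.46 to 1.35, adjusted p = 0.241). It was the only tested member whose HFD+ASBTi and HFD values did not overlap, beside 2.32% of all tested genes without overlap on the higher side and 1.64% on the lower side. Cdo1 averaged 41.9 ± 9.51 RPKM in HFD+ASBTi and 30.1 ± 3.63 RPKM in HFD (0.45, 95% interval 0.11 to 0.79, adjusted p = 0.434). Nags averaged 9.13 ± 0.858 RPKM in HFD+ASBTi and 7.68 ± 0.792 RPKM in HFD (0.24, 95% interval 0.04 to 0.43, adjusted p = 0.453).

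All 8 sulfur genes had log2 fold changes above 0 in HFD+ASBTi against HFD, with a median of 0.35 beside 0.01 over all tested genes, and after quantile normalization 7 of the 8 did. This comparison shares its HFD libraries with the first, where 7 of the 8 were called lower in HFD. The opposite directions are therefore not independent of each other. Gnmt had 0.43 (95% interval -0.08 to 0.93), Bhmt 0.73 (-0.08 to 1.54), Cth 0.27 (-0.09 to 0.63) and Mat1a 0.12 (-0.19 to 0.42), and each interval held 0. In the urea cycle the log2 fold changes other than that of Nags lay between -0.13 for Arg1 and 0.19 for Ass1. Among the 6 urea cycle genes the 95% interval was narrowest for Otc (-0.22 to 0.08) and widest for Ass1 (-0.52 to 0.90). Over all 39 members the median was 0.01, with 20 above and 19 below 0.

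Within the HFD+ASBTi group several genes split between libraries 1 and 2 and libraries 3 and 4. Tat had 26.3 and 20.4 RPKM in libraries 1 and 2 and 59.1 and 54.4 RPKM in libraries 3 and 4. Agxt had 7.46 and 8.17 RPKM in libraries 1 and 2 and 3.60 and 4.48 RPKM in libraries 3 and 4. Gldc had 0.482 and 0.666 RPKM in libraries 1 and 2 and 0.181 and 0.195 RPKM in libraries 3 and 4, and Ddc split in the same direction. Tat, Agxt and Gldc were not called in HFD+ASBTi against HFD when any 1 library was left out, and Ddc was not tested there.

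The third comparison set the inhibitor group against chow and shares its chow libraries with the first. In HFD+ASBTi livers 7 of the 39 tested genes were lower than in chow and 0 were higher, beside 2.31% and 4.74% of all tested genes, and 21 members had an unadjusted p under 0.05 beside 23.3% of all tested genes. Every HFD+ASBTi library lay below every chow library in 13 members and above in 1, Otc, beside 5.53% and 10.2% of all tested genes. The 7 genes were Asl, Arg1, Tat, Tdo2, Mat1a, Csad and Agxt. Tdo2 averaged 19.1 ± 2.82 RPKM in HFD+ASBTi and 35.8 ± 1.61 RPKM in chow (log2 fold change -0.90, SE 0.11, limma adjusted p = 0.00199), and Mat1a 95.9 ± 8.81 RPKM in HFD+ASBTi and 169.7 ± 11.6 RPKM in chow (log2 fold change -0.82, SE 0.14, limma adjusted p = 0.00886). These 2 calls were kept in every alternative run.

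Csad stood at 0.512 of the chow mean in HFD+ASBTi (log2 fold change -0.91, adjusted p = 0.0257) and at 0.264 of it in HFD. Arg1 was 1.74-fold, Asl 2.26-fold, Agxt 2.01-fold and Tat 2.55-fold lower in HFD+ASBTi than in chow (adjusted p 0.0194, 0.0294, 0.0487 and 0.0456). The 6 genes called lower in HFD against chow but not in this comparison were Cps1 -0.74, Gnmt -0.73, Ahcy -0.50, Cbs -0.31, Cth -0.57 and Cdo1 -0.53 (log2 fold changes of HFD+ASBTi against chow, adjusted p 0.0632 to 0.165). The direct comparison of the 2 high-fat groups is HFD+ASBTi against HFD, where none of these 6 was called. The calls of Asl (without HFD+ASBTi 1 or 2 or chow 1 or 2), Arg1 (without chow 1 or 2), Tat (without HFD+ASBTi 1 or 2, HFD 2 or 3 or any 1 chow library), Csad (without HFD+ASBTi 1, 2 or 4 or any 1 chow library) and Agxt (lost in 10 of 12, kept without HFD+ASBTi 2 or HFD 3) were lost when single libraries were left out, with adjusted p between 0.0501 and 0.126. With no filter on low values the calls of Asl, Tat, Csad and Agxt were also lost, in the model of the 2 groups compared those of Asl, Tat and Agxt, and with transcripts summed that of Agxt (adjusted p 0.051 to 0.109 over these 3 settings).

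A wider list of 113 genes of the same pathways, chosen with earlier results of these data known, was read beside the members. Of 84 tested, 13 were higher and 6 lower in HFD than in chow, beside 7.65% and 4.46% of all tested genes, where higher calls also outnumbered lower ones. The 13 became 5 to 14 when 1 library was left out (6 without HFD 2, HFD 3, chow C7 or chow 4 and 5 without chow 2) and 7 with no filter on low values. Over all 6325 tested genes the 484 higher calls became 301 to 359 without HFD 2, HFD 3, chow C7 or chow 4. Without chow 2 they became 291, and with no filter 484 of 18950 genes were called higher. Slc25a15, the carrier that brings ornithine into the mitochondrion for the urea cycle, averaged 4.75 ± 0.830 RPKM in HFD and 7.23 ± 1.03 RPKM in chow (log2 fold change -0.56, adjusted p = 0.0261), the only call among 7 tested urea cycle partners. Among 17 sulfur and one-carbon partners 4 were higher and none lower in HFD: Chdh, which oxidises choline towards betaine (log2 fold change 0.36, adjusted p = 0.00682), Sardh, which breaks down the sarcosine that Gnmt makes (log2 fold change 0.58, adjusted p = 0.0155), Sqrdl, which oxidises sulfide (log2 fold change 0.44, adjusted p = 0.0347), and Mpst, a sulfurtransferase of cysteine breakdown (log2 fold change 0.40, adjusted p = 0.0454). The called sulfur members were lower and these 4 partners higher, while 13 of the 17 sulfur and one-carbon partners were not called. The Mpst and Sqrdl calls were lost in 10 and 7 of 21 alternatives, and those of Chdh and Sardh were kept in all.

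Of 11 aromatic and histidine partners 2 were higher in HFD: Qprt, which leads quinolinate to NAD (log2 fold change 0.36, adjusted p = 0.0342), and Pcbd1, which recycles the cofactor of phenylalanine hydroxylase (log2 fold change 0.45, adjusted p = 0.0402). Of 13 branched-chain partners 2 were higher, Hibadh of valine breakdown (log2 fold change 0.30, adjusted p = 0.022) and Mut, the methylmalonyl-CoA mutase (log2 fold change 0.25, adjusted p = 0.0369). Of 14 glycine, serine, threonine, proline and lysine partners Hao1, which makes glyoxylate, was higher (log2 fold change 0.48, adjusted p = 0.0226) and Gcat, which splits the threonine product to glycine, was lower (log2 fold change -0.48, adjusted p = 0.00875). Among 8 transporters Slc38a3, a glutamine transporter, was higher (log2 fold change 0.73, adjusted p = 0.0273), while Slc38a2, another amino acid transporter of that family, and Slc3a2, the heavy chain shared by several exchangers, were lower (log2 fold change -1.01, adjusted p = 0.0246 and log2 fold change -0.32, adjusted p = 0.012).

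Of 14 regulators, Hnf4a, a transcription factor of hepatocyte genes and 1 of the hepatocyte markers, averaged 11.3 ± 1.60 RPKM in HFD and 19.2 ± 1.08 RPKM in chow and was lower (log2 fold change -0.74, adjusted p = 0.00126), as was Fgfr4, the liver receptor for ileal FGF15 (log2 fold change -0.40, adjusted p = 0.00492). Cebpa, Ppara and Fgf21, which encode 2 transcription factors and a liver hormone, were higher in HFD (log2 fold changes 0.54, 0.60 and 1.31, adjusted p 0.0111, 0.00805 and 0.0486). In HFD+ASBTi against HFD the single call among the 84 partners was Fgfr4, at 1.19, 1.12, 1.31 and 1.23 RPKM in HFD+ASBTi and 0.812, 0.657, 0.656 and 0.805 RPKM in HFD (log2 fold change 0.48, SE 0.07, limma adjusted p = 0.0452). Its HFD+ASBTi values all lay above its HFD values, but the call was lost in 16 of 22 alternatives (adjusted p 0.0513 to 0.368), among them leaving out any 1 of the HFD+ASBTi or HFD libraries or chow 2 or 4, and the replicate block (0.368). In HFD+ASBTi against chow 6 partners were higher (Qprt, Sardh, Chdh, Tst, Hao1 and Cebpa) and 2 lower (Slc38a2 and Hnf4a), beside 4.74% and 2.31% of all tested genes, and after quantile normalization 3 were higher and 4 lower. Of the 19 partner calls in HFD against chow, 8 were kept in all 21 alternatives (Sardh, Chdh, Gcat, Slc3a2, Cebpa, Hnf4a, Ppara and Fgfr4), and of the 8 in HFD+ASBTi against chow 2 were (Cebpa and Hnf4a). Each of the other partner calls was lost when at least 1 single library was left out.

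Markers of cell types were read beside these results. In bulk tissue, fewer cells of a type and less RNA per cell cannot be told apart. The summed level of 9 hepatocyte markers found was 3910 to 4260 RPKM in HFD+ASBTi, 3570 to 5770 in HFD and 4010 to 4500 in chow, so the groups overlapped, with Apoa1 and Alb the largest parts of the sum. Of the 9, 7 had log2 fold changes below 0 in HFD against chow and 2 were called lower, Hnf4a and Fgb, a fibrinogen chain (log2 fold change -0.71, adjusted p = 0.0257).

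The sum of 8 periportal markers, of which Sds, Hal and Gls2 are also members, was 162 to 243 RPKM in HFD+ASBTi, 198 to 393 in HFD and 378 to 493 in chow. Pck1 carried most of this difference, with a mean of 140.1 RPKM in HFD+ASBTi, 180.5 in HFD and 351 in chow, and was the only called one of 7 tested. Of the 7, 4 had log2 fold changes below 0 in HFD against chow. Beside Pck1 these were Sds, Hal and Gls2, at 0.646, 0.830 and 0.820 of the chow mean in HFD. Hsd17b13 stood at 1.57-fold, Aldh1b1 at 2.22-fold and Cyp2f2 at 1.03-fold the chow mean, and the untested Cdh1 at 1.55-fold. The Aldh1b1 mean rested on HFD 4, at 21.6 RPKM against 4.99 to 6.12 in the other HFD libraries. None of these markers but Pck1 was called. The 9 pericentral markers, of which Oat is also a member, summed to 406 to 524 RPKM in HFD+ASBTi, 310 to 536 in HFD and 441 to 495 in chow. None was called in HFD against chow. In HFD+ASBTi against chow, Gulo alone of the 6 tested was called, and was higher (log2 fold change 0.59, limma adjusted p = 0.00871).

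The sum of 5 red blood cell genes was 147 to 287 RPKM in HFD+ASBTi, 168 to 301 in HFD and 28.8 to 139 in chow, and the 4 globin genes were called higher in both high-fat groups than in chow. Hba-a1 and Hba-a2 had nearly the same value in every library and the same fold of means in HFD against chow (3.34). They are therefore not separate measurements. The 12 macrophage and Kupffer cell markers summed to 27.2 to 46.8 RPKM in HFD+ASBTi, 25.8 to 33.7 in HFD and 18.1 to 44.4 in chow, and Cd68 alone of the 8 tested was called higher, in HFD and in HFD+ASBTi against chow (adjusted p 0.0202 and 0.0251). Adipose markers summed to 0.421 to 3.87 RPKM in HFD+ASBTi, 1.0 to 6.91 in HFD and 0 to 0.876 in chow, nearly all of it Cfd, with Retn and Lep under 0.05 RPKM in every library and Plin1 at a mean of 0.0104 RPKM in HFD. In the order HFD+ASBTi, HFD and chow, T, B and NK cell markers summed to 0.161 to 0.358, 0.263 to 0.588 and 0.173 to 0.696 RPKM, and 5 of 6 kidney and pancreas markers were at 0 in all libraries. The part of the Pck1, Gulo, red blood cell, Cd68 and Cfd differences in the member results was not tested.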

How the data were processed

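The authors' deposited table holds 33763 RefSeq transcripts with their RPKM in 12 liver libraries. Alignment with Bowtie 0.12.7 to mm9 is named by the submitters' processing notes. The counter is not given in the sources used here, and no stranded counting is stated, so overlapping and antisense genes cannot be told apart. If RPKM was divided by the genomic span of GRCm38 genes, 77.0% to 79.5% of each library's low values come out within 0.05 of a whole number of reads, and 12.3% to 13.3% do if it was divided by spliced length. This gave the estimated read numbers, which cover counting error only, and the RPM values (RPKM multiplied by span).

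Genes were represented by their transcript of highest mean. Of 23991 genes, 6325 reached 0.5 RPKM in 4 or more libraries and were tested on log2(RPKM + 0.5) by limma 3.58.1 (R 4.3.3), with trended variance and 1 model of 12 libraries and 9 residual degrees of freedom. Calls needed a two-sided p, adjusted by Benjamini-Hochberg over all tested genes, under 0.05. The code was tested on simulated data. The 22 alternatives changed the pseudocount, filter, scaling, length unit, transcript choice, model or replicate block, or left out 1 library. Python 3.11.15 (pandas 2.3.3, numpy 2.4.6, matplotlib 3.10.9) made tables and plots. Members called in HFD against chow or HFD+ASBTi against HFD, and the 6 urea cycle genes, have their values in every library. Sds, Got1, Tat, Gldc and Ddc were also shown by library after their values were seen. Partner genes were named where called. The members and lists were chosen with earlier results of these data known.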

Additional observations from a re-analysis of the deposited data

Results flagged for a closer look

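In each group of 4 libraries, the 42 genes were searched for a single library far from the other 3 (126 gene and group pairs; chance flags about 1 in 20). There were 4 such values, which is no more than that chance rate gives. Sds was 38.7 RPKM in HFD 4, against 6.89 to 11.6 in the other HFD libraries. Got1 was 8.02 RPKM in HFD 4, against 1.8 to 2.75 in the other HFD libraries. Bhmt was 83.4 RPKM in chow 1, against 40.9 to 47.1 in the other chow libraries. Ftcd was 10.98 RPKM in chow C7, against 13.1 to 13.5 in chow 1, 2 and 4. Without chow C7, or without HFD 2, its call in HFD against chow was lost (limma adjusted p 0.0505 to 0.0525). The part of these libraries in the group differences, beyond the values given without HFD 4 or chow C7, was not tested.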

How the results depend on the processing

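In HFD against chow, 2 members were called higher, with 1 under quantile normalization and 0 to 2 when 1 library was left out, the lowest without chow C7. Over all 6325 tested genes the 484 called higher became 321 without chow C7. The 12 members called lower became 7 to 18 when 1 library was left out, with 7 without HFD 2, HFD 3 or chow 1 and 18 without HFD 4, and 8 to 16 under the other alternatives. Over all 6325 tested genes the 282 called lower became 177, 174 and 177 without HFD 2, HFD 3 and chow 1. Without HFD 4 they became 348. In HFD+ASBTi against chow, the 7 members called lower became 3 with no filter on low values and 2 to 9 when 1 library was left out, with 2 without chow 1 or chow 2 and 9 without HFD 4. Over all tested genes the 146 called lower became 77 and 52 without chow 1 and chow 2 and 166 without HFD 4. With no filter, 113 of 18950 genes were called lower. The 18 and the 9 members without HFD 4 both include Sdsl, whose direction was largely fixed by the filter. HFD 4 was the highest HFD library in 28 of the 42 genes, so leaving it out favours lower calls in HFD against chow by construction. In HFD+ASBTi against HFD no member was called under any alternative, including the replicate block, which called 0 higher and 0 lower. The replicate numbers of HFD and HFD+ASBTi are not stated to pair animals, the correlations of same-numbered libraries were 0.041 to 0.069 and 1 of 4 numbers was its own best partner, so the samples share only a number. Chow carries no such numbers. Of 441 repeats of the called changes, 357 kept their call, 84 lost it and 0 changed direction. The calls of Asl, Tdo2, Mat1a, Gnmt, Cth, Cdo1 and Csad in HFD against chow and of Tdo2 and Mat1a in HFD+ASBTi against chow were kept in every alternative. Over all genes, the split of 484 higher and 282 lower in HFD against chow was 442 and 387 after median ratio scaling and 426 and 384 after quantile normalization. The split of 300 and 146 in HFD+ASBTi against chow was 224 and 186, and 190 and 203, under the same scalings. On the RPM scale 13117 genes were tested and 848 were higher and 432 lower in HFD than in chow. The 4 libraries a group limit precision, and Ddc and Bckdhb could be tested only on the RPM scale or with no filter, and Kynu there and with transcripts summed. The partner genes were put through the same alternatives after seeing the data, and none changed direction. The cause of the lost calls was not tested.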
